A study of Mus musculus with 24 samples.

Results

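Slc10a6, Slco4a1, Sult1a1 and Scara5 are 4 of the 48544 genes listed in an RNA-seq study of the C2C12 line, cultured mouse myoblasts that leave the cell cycle and join into long multinucleated myotubes in low serum. They were picked by name after their response to dexamethasone, a synthetic glucocorticoid used to make muscle cells atrophy, had been seen in these same libraries. Their values under dexamethasone are therefore a description, with no test. Polyadenylated RNA was sequenced in 24 libraries of wild-type cells, in 6 groups of 4. Day 0 myoblasts grew in 10% fetal bovine serum, and day 7 myotubes had spent 7 days in 2%. From day 7, myotubes received either 100 µM dexamethasone or vehicle medium with 1% ethanol, both in 2% serum, and were collected 24 h (day 8) or 72 h (day 10) later. Ethanol is named in the labels for the vehicle medium and not for the treated one. The labels do not say whether replicates came from separate cultures, so p-values here measure the spread among the samples, and that spread may be technical. All libraries come from a single cell line, and every medium was high-glucose DMEM.

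Dexamethasone binds the glucocorticoid receptor, which enters the nucleus and acts on genes near response elements built from inverted copies of a short DNA motif. The 4 genes act at the cell surface or on small molecules inside the cell. Slc10a6 encodes a sodium-dependent carrier that takes up sulfated steroids. Slco4a1 encodes an organic anion transporter whose cargo includes thyroid hormones. Sult1a1 encodes a cytosolic sulfotransferase that moves sulfate from the donor PAPS to phenolic compounds. Scara5 encodes a class A scavenger receptor that binds ferritin and can bring iron into cells.

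Levels are given as TPM (an abundance scaled by transcript length and library total, which can be compared between genes), as mean ± SD (n = 4). Depth is unknown. A library had from 12428 to 13030 genes at 1 TPM or more. Overlap between groups is given as a description throughout, since the share of all genes without overlap was not counted. For the 4 genes under dexamethasone it also reflects how they were picked. The muscle label was checked on 6 markers (Myod1, Myog, Des, Ckm, Acta1 and Myh3), whose summed level ran from 470 to 816 TPM in myoblasts and from 5160 to 12600 TPM in all later groups. The 4 macrophage markers summed to between 1.09 and 4.67 TPM. Of these Cd68, a lysosomal protein also found outside macrophages, had 1.02 to 4.54 TPM, with 3.5 ± 0.912 TPM in treated and 2.26 ± 1.36 TPM in vehicle libraries at 72 h, while Adgre1 and Ptprc stayed at 0.0662 TPM or less in every library. The replicate 1 libraries at 72 h stood apart. For 19 other genes that lay under 0.5 TPM in all 4 vehicle libraries at 24 h and at 2 TPM or more in all treated libraries at 72 h, vehicle replicate 1 at 72 h held a median of 14.3% of the level in treated replicate 1, against 1.16%, 0.86% and 0.669% for the other pairs. In the other direction, over 27 genes with a treated median under 0.5 TPM and 2 TPM or more in all vehicle libraries at 72 h, treated replicate 1 held a median of 25.5% of the level in vehicle replicate 1, against 2.3%, 5.73% and 1.98%. Each rule was also run the other way. The second gave 31 genes for the vehicle libraries, with medians of 14.8%, 1.78%, 2.65% and 1.48% in replicates 1 to 4. The first gave only 1 gene for the treated libraries, with 80.3%, 0%, 0% and 232%, where replicate 1 did not stand out. Both rules treat the 4 replicate numbers alike and were chosen after the libraries had been seen. Both also select on 72 h values that enter the shares. Means at 72 h that the results turn on are therefore also given without both libraries. Of the calls at 72 h named in what follows, those of Aff1 and Coro1a were lost without them (adjusted p = 0.131 and 0.122 by limma). In bulk RNA, fewer cells of a type and less RNA per cell cannot be told apart.

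Slc10a6 (ENSMUSG00000029321), the sulfated-steroid carrier, lay below 1 TPM in all 16 libraries without dexamethasone and between 3.39 and 14.3 TPM in all 8 treated libraries. Its upstream sequence is shown because it holds a full match to the palindrome of the receptor's response element. The 250 bases before its start in RefSeq (GRCm38.p6, chr5:103629404-103629653, minus strand) are as follows, with the match to GNACANNNTGTNC in capitals.
Slc10a6: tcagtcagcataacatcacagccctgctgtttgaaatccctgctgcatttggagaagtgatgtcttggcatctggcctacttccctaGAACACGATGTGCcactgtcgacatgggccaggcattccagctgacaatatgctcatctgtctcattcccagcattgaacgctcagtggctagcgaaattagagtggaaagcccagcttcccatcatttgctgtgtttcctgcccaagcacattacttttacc
The match, GAACACGATGTGC, begins 163 bases before the start, and it overlaps matches to the shorter motifs ACANNNTGT and AGAACA. Searched on both strands of 32851 RefSeq windows of this length, GNACANNNTGTNC was found in 0.387%, ACANNNTGT in 5.84% and AGAACA in 16.1%. A match is a string of letters and shows neither binding nor a cause. In day 0 myoblasts Slc10a6 stood at 0.0953, 0.104, 0.166 and 0.0757 TPM in replicates 1 to 4. Day 7 myotubes had 0.115, 0.00972, 0.0214 and 0.0515 TPM. These low groups overlapped. Vehicle libraries had 0.183, 0.0849, 0.0203 and 0.0582 TPM at 24 h, and 0.95, 0.0985, 0.117 and 0.154 TPM at 72 h. Replicate 1 at 72 h was far above the other vehicle libraries, and the group mean was 0.33 ± 0.414 TPM with it and 0.123 ± 0.0283 without it. Dexamethasone for 24 h gave 10.1, 13.6, 10.2 and 14.3 TPM (12 ± 2.24). Dexamethasone for 72 h gave 7.84, 3.39, 7.58 and 4.05 TPM (5.72 ± 2.32, or 5.01 ± 2.25 without replicate 1). The treated groups overlapped neither the vehicle groups nor each other, and the mean at 72 h was 47.5% of that at 24 h. Among the other 4 groups, neighbours in the order of means (vehicle 72 h, day 0, vehicle 24 h, day 7) overlapped.

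Slco4a1 (ENSMUSG00000038963), the organic anion transporter, was the late gene of the set. It averaged 0.698 ± 0.44 TPM after 24 h of dexamethasone and 7.43 ± 4.08 TPM after 72 h (9.14 without replicate 1), where Slc10a6, Sult1a1 and Scara5 had lower means at 72 h than at 24 h. RefSeq lists 2 starts, with windows at chr2:180455995-180456244 and chr2:180460728-180460977 (GRCm38.p6, plus strand). The first window is shown for comparison with that of Slc10a6, because it is rich in CG pairs and holds none of the 3 motifs, so no letter is in capitals.
Slco4a1: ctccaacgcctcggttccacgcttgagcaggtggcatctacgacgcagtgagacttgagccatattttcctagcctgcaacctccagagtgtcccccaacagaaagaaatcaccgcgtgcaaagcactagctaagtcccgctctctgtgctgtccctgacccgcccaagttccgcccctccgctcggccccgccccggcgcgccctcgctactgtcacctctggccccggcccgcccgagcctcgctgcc
It has 21 CG pairs, against 4 in the Slc10a6 window and a median of 6 over all windows, and its GC content is 64.8%, against a median of 52.4%. The other Slco4a1 window has 4 CG pairs and none of the motifs either. Myoblasts held 0.702, 0.557, 0.219 and 0.127 TPM of Slco4a1. Day 7 myotubes held 0.0109, 0.0334, 0.0144 and 0 TPM, all below the lowest myoblast library. Vehicle libraries held 0.0144, 0.0653, 0 and 0.00659 TPM at 24 h, and 0.319, 0.0246, 0.0436 and 0.0164 TPM at 72 h. Vehicle replicate 1 at 72 h was again the high one, and the mean was 0.101 ± 0.146 TPM with it and 0.0282 ± 0.014 TPM without it. With dexamethasone the libraries held 1.16, 0.71, 0.102 and 0.825 TPM at 24 h. At 72 h they held 2.29, 6.99, 12.2 and 8.24 TPM. Every treated library lay above every vehicle library of its time, and the 24 h and 72 h groups did not overlap. The ratio of the treated means, 72 h over 24 h, was 10.6, or 13.1 without replicate 1 at 72 h, which was the lowest of the 4. The 24 h treated group overlapped the myoblasts, the next group in the order of means.

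Sult1a1 (ENSMUSG00000030711), the sulfotransferase, was listed at 0 TPM in 7 of the 8 libraries before day 8 and reached 8.41 to 10.1 TPM after 24 h of dexamethasone. The window before its RefSeq start (GRCm38.p6, chr7:126676419-126676668, minus strand) is shown with AGAACA, or its reverse complement TGTTCT, in capitals.
Sult1a1: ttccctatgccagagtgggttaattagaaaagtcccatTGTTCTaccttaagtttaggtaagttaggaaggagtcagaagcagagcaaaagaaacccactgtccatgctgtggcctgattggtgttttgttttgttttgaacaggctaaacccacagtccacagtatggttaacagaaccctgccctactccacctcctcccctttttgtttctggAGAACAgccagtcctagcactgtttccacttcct
The matches begin 212 and 34 bases before the start, and the window holds no CG pair and no match to the longer motifs. No such window was used for Scara5. Day 0 replicate 4 had 0.016 TPM, and the other 7 libraries of days 0 and 7 were listed at 0. Vehicle libraries at 24 h had 0.0494, 0.0315, 0.0146 and 0.0145 TPM. Vehicle libraries at 72 h had 1.92, 0.0185, 0.0473 and 0.0354 TPM. Replicate 1 at 72 h thus had more Sult1a1 than 2 treated libraries of that time, and the group mean was 0.506 ± 0.945 TPM with it and 0.0337 ± 0.0145 without it. Dexamethasone for 24 h gave 10.1, 8.41, 8.98 and 9.88 TPM (9.35 ± 0.798), the tightest treated group of the set, with a coefficient of variation of 8.5%. Dexamethasone for 72 h gave 17, 1.35, 9.58 and 1.89 TPM (7.45 ± 7.39, or 4.27 ± 4.61 without replicate 1). Replicates 1 and 3 were high and replicates 2 and 4 low. The ranges of the treated and vehicle groups at 72 h overlapped only through vehicle replicate 1, and those of the 24 h and 72 h treated groups overlapped as well.

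Scara5 (ENSMUSG00000022032), the ferritin-binding receptor, was the most abundant of the 4 in treated cells, at 115 ± 40.3 TPM after 24 h, 34.1-fold over the vehicle mean of 3.38 ± 2.01 TPM. At 72 h the difference was small beside the spread, with 21.1 ± 22.1 TPM in treated and 9.11 ± 3.58 TPM in vehicle libraries, a ratio of 2.32 that was 1.46 without both replicate 1 libraries. Myoblasts had 0.0696, 0.046, 0.175 and 0.234 TPM. Day 7 myotubes had 1.15, 1.88, 1.53 and 1.3 TPM, all above the myoblasts. In vehicle medium the libraries had 2.65, 5.7, 1.01 and 4.16 TPM at 24 h, and 11, 8.73, 12.4 and 4.25 TPM at 72 h. Scara5 was the member with an appreciable level in untreated myotubes, and its vehicle libraries at the 2 times overlapped. Treated libraries had 65, 149, 101 and 147 TPM at 24 h. At 72 h they had 47.3, 2.43, 31.5 and 3.28 TPM. Replicates 2 and 4 at 72 h lay below all 4 vehicle libraries of that time, and replicates 1 and 3 lay above all of them.

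**Figure D1:**
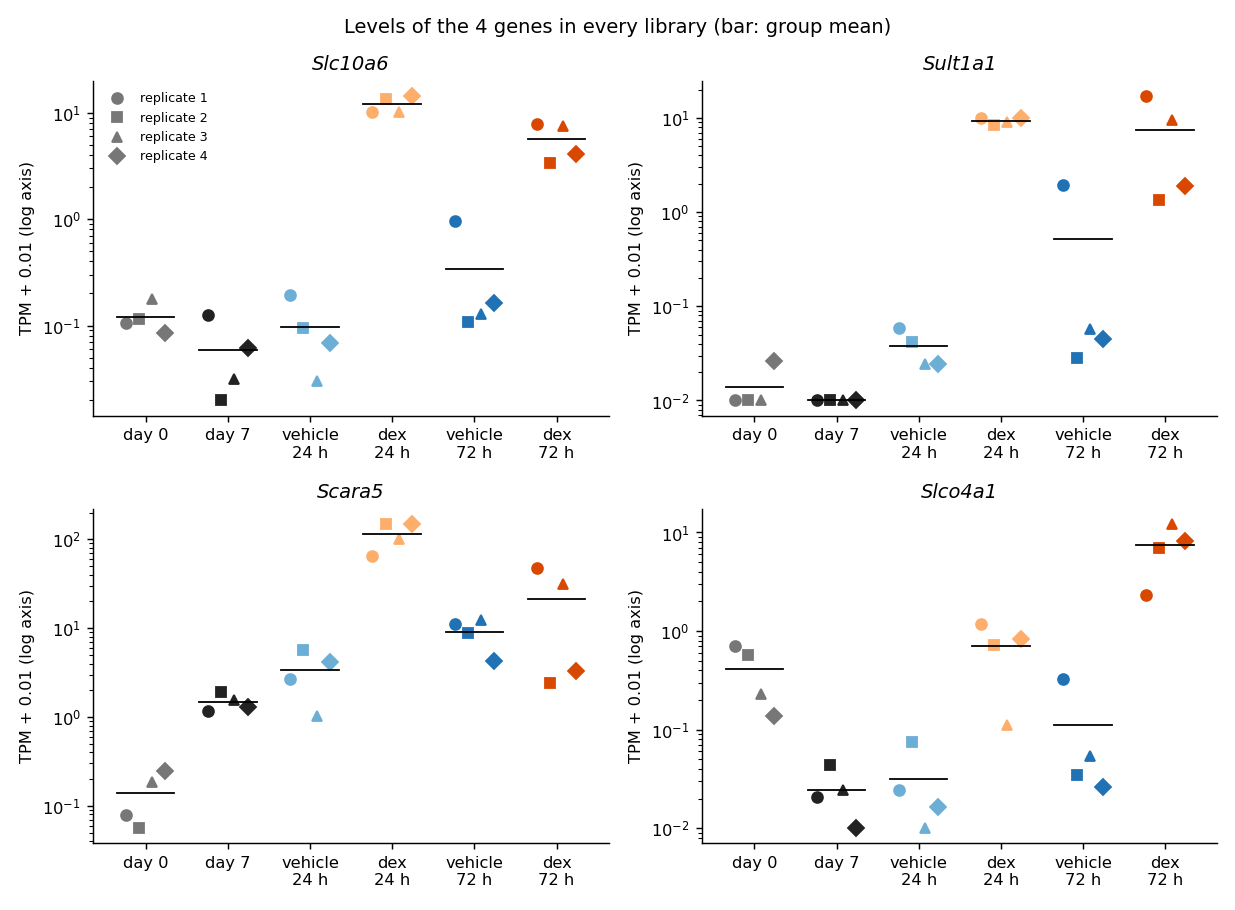
TPM + 0.01 (log axis) of each gene in the 24 libraries, with the 6 groups on the x axis, 1 symbol per replicate number and a bar at the group mean. Slc10a6, Sult1a1 and Scara5 have higher treated means at 24 h than at 72 h, Slco4a1 has 0.698 TPM at 24 h and 7.43 TPM at 72 h, and vehicle 72 h replicate 1 lies above the other vehicle libraries for Slc10a6, Sult1a1 and Slco4a1.

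Differentiation, which did not choose the genes, was tested with limma on the deposited log2 table, with Benjamini-Hochberg adjustment over 16257 genes and a threshold of 0.05. Slc10a6 and Scara5 passed the filter on low values in all 24 libraries, Slco4a1 in 21, and Sult1a1 in 10, of which 8 were treated. Sult1a1 thus passed only through the treated groups and is not tested here. Passing this filter does not show expression. Another gene, Serpina3m, had a log2 value of 3.73 at 0 TPM in day 0 replicate 1. Slc10a6 had 3.78 at 0.00972 TPM in day 7 replicate 2, and both values pass. With the filter of the TPM alternatives, 0.5 TPM in 4 libraries, Slc10a6 and Slco4a1 too pass only through treated libraries. Their differentiation results rest on levels of 0.702 TPM or less. Differences are given on the log2 scale of that table ± SE. They are 0.62 to 0.69 times as large as log2 differences of TPM (regression slopes over 12737 genes). With differentiation, from day 0 to day 7, Scara5 rose by 1.46 ± 0.49 (limma adjusted p = 0.0127) and Slco4a1 fell by 1.86 ± 0.47 (limma adjusted p = 0.00173). For both genes the day 0 and day 7 libraries did not overlap. The share of all genes without such overlap was not counted, so this adds no support to the calls. Over all genes tested, 30.5% were higher and 29.8% lower, so 1 gene in each direction among the 3 tested is near the background. Both calls were lost on log2(TPM + 1), with adjusted p = 0.124 for Scara5 and 0.174 for Slco4a1. Slc10a6 had a difference of -0.39 ± 0.32 (adjusted p = 0.299), which became -0.58 and passed when replicate 1 was left out of every group (limma adjusted p = 0.0212). Sult1a1 was at or near 0 TPM in both groups.

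The vehicle medium itself was compared with day 7, and its later with its earlier time. These vehicle libraries are also the base of the contrasts that chose the genes, so the members' differences are a description, with no test. From day 7 to vehicle 24 h the log2 differences were 0.62 ± 0.49 (SE) for Scara5, 0.25 ± 0.32 for Slc10a6 and 0.05 ± 0.47 for Slco4a1. Limma called 0.209% of all genes tested in that comparison. From vehicle 24 h to vehicle 72 h Scara5 differed by 0.96 ± 0.49, Slc10a6 by 0.63 ± 0.32 and Slco4a1 by 0.52 ± 0.47, where 4.36% of all genes were called.

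Under dexamethasone the 4 genes differed from vehicle at 24 h by 4.85 (Sult1a1), 4.7 (Slc10a6), 3.83 (Scara5) and 2.3 (Slco4a1) on the same log2 scale. At 72 h the order was 4.52 for Slco4a1, 3.23 for Sult1a1, 3.15 for Slc10a6 and 0.3 for Scara5. Without both replicate 1 libraries these were 5.32, 3.46, 3.42 and -0.14, so the sign for Scara5 turned, while its ratio of mean TPM was 1.46. These are the contrasts that chose the genes, and nothing is read from them beyond the values. Over all genes tested, 13.2% were higher and 12.2% lower at 24 h, and 15.2% were higher and 15.2% lower at 72 h. By log2(TPM + 0.1) the split of the calls at 24 h was 2132 higher against 1160 lower.

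The 72 h treated libraries split by replicate number for Scara5, Sult1a1 and Slc10a6 and not for Slco4a1. Scara5 averaged 39.4 TPM in replicates 1 and 3 and 2.85 TPM in replicates 2 and 4. Sult1a1 averaged 13.3 TPM and 1.62 TPM in the same pairs. Slc10a6 averaged 7.71 TPM and 3.72 TPM. Slco4a1 averaged 7.24 TPM and 7.62 TPM, so the libraries low in the other genes were not low in it. These pairs were set apart after their values were seen and are not groups of the study. Some markers of fibroblasts and adipocyte progenitors were also lower in replicates 2 and 4. Pdgfra, a receptor of mesenchymal progenitors, had 9.03, 4.63, 6.86 and 3.4 TPM in treated replicates 1 to 4 at 72 h. Ly6a, an antigen of progenitor cells, had 596, 202, 485 and 304 TPM. Dcn, a matrix proteoglycan, had 54.7, 14.5, 45.9 and 34.6 TPM. Cd34, a surface protein of progenitors, was not so ordered, with 16.6, 22.2, 11.7 and 14.7 TPM. Neither was Pi16, with 0.51, 0.15, 0.25 and 0.277 TPM. Lum, near the floor, had 0.585, 0, 0.0263 and 0 TPM. Treated and vehicle means did not differ in 1 direction over the 7 progenitor markers. Pdgfra was 20.3 ± 5.22 TPM in treated and 4.79 ± 1.88 TPM in vehicle libraries at 24 h, and 5.98 ± 2.49 against 6.24 ± 1.87 TPM at 72 h. Ly6a was higher in treated libraries, at 442 ± 74.4 against 190 ± 62.4 TPM at 24 h and 396 ± 177 against 129 ± 54.3 TPM at 72 h. Dcn had lower treated means, with 40 ± 15.8 against 66.8 ± 27.3 TPM at 24 h and 37.4 ± 17.4 against 126 ± 42.6 TPM at 72 h. Lum, a related proteoglycan, had 0.45 against 2.02 TPM at 24 h and 0.153 against 4.1 TPM at 72 h. Pi16, a marker of progenitors, had 0.772 against 1.1 TPM and 0.297 against 1.22 TPM. Cd34 had 8.2 against 15.2 TPM at 24 h and 16.3 against 13.1 TPM at 72 h. Dpp4 was at 0.0509 TPM or less in all of these libraries. The sum of the 7 is mostly Ly6a, and it ran from 409 to 630 TPM in treated and 163 to 338 TPM in vehicle libraries at 24 h, and from 243 to 677 TPM against 165 to 370 TPM at 72 h. The part of such cells in the levels of the 4 genes was not tested.

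**Figure D2:**
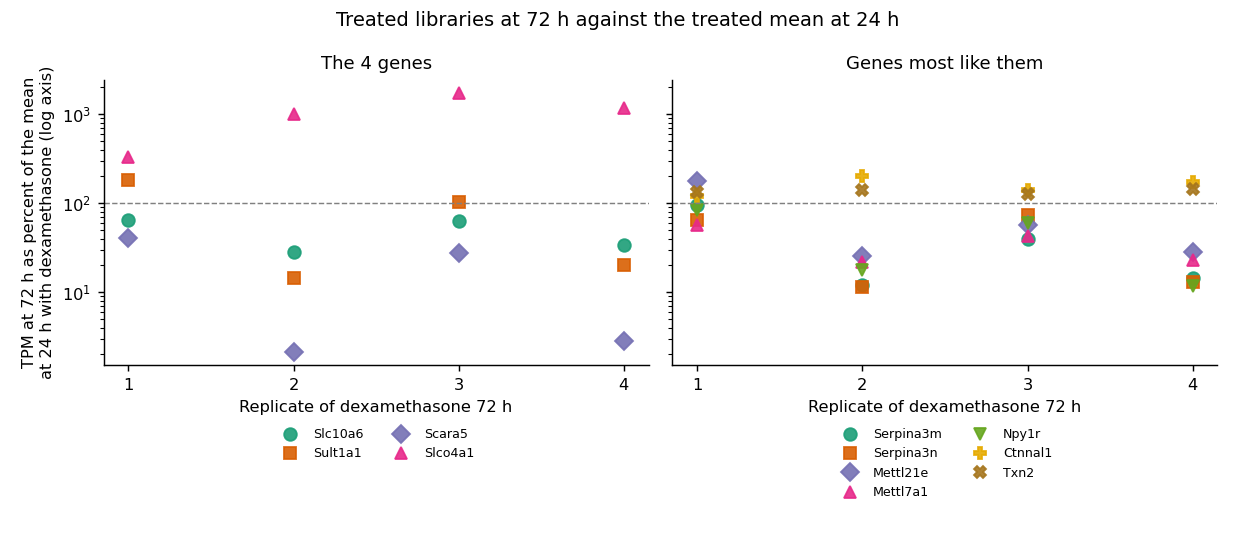
Each treated library at 72 h (x axis, replicate number) as percent of the mean of the treated libraries at 24 h (y axis, log scale), for the 4 genes on the left and for genes with the most similar profiles on the right, with the dashed line at 100%. In replicates 2 and 4 Scara5 and Sult1a1 lie far under the line, as do Serpina3m and Npy1r, while Slco4a1 and Ctnnal1 lie above it in all 4 libraries. The genes on the right were taken for their likeness over these same libraries, so the shared pattern follows from that choice.

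Vehicle replicate 1 at 72 h held 12.1% of the Slc10a6 level of treated replicate 1, 11.3% of the Sult1a1 level and 13.9% of the Slco4a1 level. In replicates 2 to 4 the values were 2.9%, 1.55% and 3.8% for Slc10a6. They were 1.37%, 0.494% and 1.88% for Sult1a1 and 0.352%, 0.358% and 0.2% for Slco4a1. For these 3 genes, as for the median of the 19 other genes above (quartiles of 11.5% and 18.3% in replicate 1), replicate 1 gave the highest share of the 4 pairs. The part of this in the vehicle means was not tested. Scara5, with a level of its own in vehicle cells, gave 23.3%, 360%, 39.5% and 130%.

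**Figure D3:**
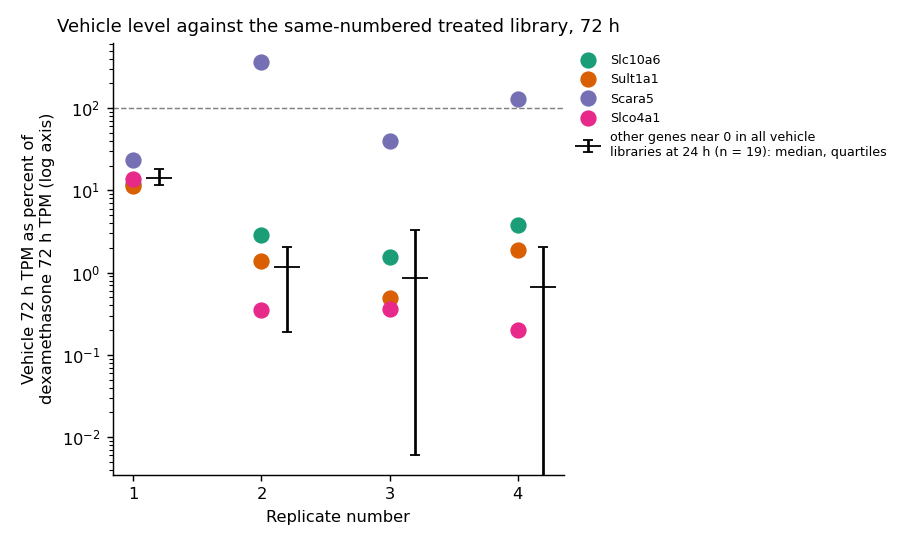
The vehicle level at 72 h as percent of the same-numbered treated library (y axis, log scale) against the replicate number, with the 4 genes as points and the median and quartiles of 19 other genes as bars (the lower quartile in replicate 4 is 0 and runs off the axis). In replicate 1 Slc10a6, Sult1a1 and Slco4a1 lie between 11.3% and 13.9%, and in replicates 2 to 4 all of their values are at 3.8% or less.

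Most relatives of these genes were hardly present. Of 7 Slc10 genes 4 stayed under 1 TPM in every library, as did 11 of 15 Slco genes, 13 of 15 Sult genes and 2 of 5 class A scavenger receptors. Slc10a3, an orphan member of the carrier family, averaged 15.6 to 19 TPM over the 6 groups, against 12 TPM for Slc10a6 at its highest. Slco3a1, a prostaglandin and thyroid hormone transporter, was the Slco gene with the highest level and rose at 72 h of dexamethasone to 41 ± 6.5 TPM from 24.8 ± 4.26 TPM in vehicle (1.65-fold, limma adjusted p = 0.000396), with no overlap, and the means were 44.2 and 26 TPM without both replicate 1 libraries. Of the 8 other Slc10 and Slco genes tested, 2 were higher and none lower at 72 h, and the other one higher was Slco2a1, at 0.149 TPM against 0.0761 TPM, a call lost without replicate 3 of every group (limma adjusted p = 0.0647). At an unadjusted p under 0.05 the 72 h counts were 2 higher and 2 lower. The counts of calls were the same without both replicate 1 libraries. At 24 h none was higher and 2, Slc10a3 and Slco2a1, were lower, and on log2(TPM + 0.1) limma called neither. At an unadjusted p under 0.05 the 24 h counts were likewise 0 and 2. The median differences were -0.19 at 24 h and -0.1 at 72 h, against -0.01 and 0.01 over all genes tested. Of all genes tested, 13.2% were higher and 12.2% lower at 24 h, and 15.2% in each direction at 72 h.

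Sult1a1 uses the sulfate donor PAPS, which the products of other genes make. Sulfatases remove sulfate, from substrates that include heparan and dermatan sulfate, and are listed here without a link to the phenolic compounds of Sult1a1. Of 25 other genes of sulfation and sulfate removal tested, 3 were higher and 6 lower at 24 h, and 1 was higher and 11 lower at 72 h (the same 72 h counts without both replicate 1 libraries). With 1 replicate number left out of every group, the lower genes ran from 2 to 5 at 24 h, with 2 without replicate 3 or 4, and from 4 to 11 at 72 h, with 4 without replicate 4. Of 23 such genes tested on log2(TPM + 0.1), 3 were higher and 3 lower at 24 h, and on log2(TPM + 1) 3 and 2, so the larger number of lower genes at 24 h was not seen on that scale. At 72 h both gave 1 higher and 8 lower. The medians were -0.06 and -0.23, against -0.01 and 0.01 over all genes tested. The shares over all genes in the main fit were 13.2% higher and 12.2% lower at 24 h, and 15.2% in each direction at 72 h. The 3 higher at 24 h were Ids, a lysosomal sulfatase of heparan and dermatan sulfate (54.2 ± 7.86 against 18.9 ± 3.05 TPM, 2.88-fold, limma adjusted p = 6.12e-05), Sulf2, an extracellular sulfatase of heparan sulfate (53.3 ± 8.41 against 19.4 ± 3.21 TPM, 2.75-fold, limma adjusted p = 0.000154), and Arsj, an arylsulfatase (3.33-fold, limma adjusted p = 0.00721, lost without replicate 3 or 4). Arsb, the lysosomal arylsulfatase B, fell at 72 h to 10.6 ± 3.9 from 21.6 ± 3.87 TPM (2.05-fold lower, limma adjusted p = 0.000217; 8.73 against 22.5 TPM without both replicate 1 libraries). Papss1, which makes PAPS, was 2.69-fold lower in day 7 myotubes than in myoblasts (26.9 ± 5.81 against 72.6 ± 9.77 TPM, limma adjusted p = 1.61e-09). Sult2b1, a cholesterol sulfotransferase and the other Sult gene to reach 1 TPM, was 1.54 ± 0.585 TPM in day 7 myotubes and 0.318 ± 0.168 TPM in myoblasts (limma adjusted p = 1.81e-05). At 72 h it stood at 0.534 ± 0.206 TPM with dexamethasone and 1.07 ± 0.3 TPM with vehicle (limma adjusted p = 0.0516, and 0.12 without both replicate 1 libraries).

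Scara3 and Colec12 were the 2 other class A scavenger receptors with an appreciable level. Scara5 itself differed from vehicle at 72 h by 0.3 on the log2 scale, and by -0.14 without both replicate 1 libraries, with no test. Scara3 fell at 72 h of dexamethasone to 3.57 ± 1.74 from 14.8 ± 4.38 TPM (4.14-fold lower, limma adjusted p = 7.8e-05). Colec12, a membrane collectin, fell to 75.6 ± 39.7 from 207 ± 13.5 TPM (2.74-fold lower, limma adjusted p = 6.99e-05). Without both replicate 1 libraries the means were 2.75 against 16.5 TPM for Scara3 and 59.4 against 212 TPM for Colec12. Treated and vehicle libraries did not overlap for either. At 24 h neither passed, with 6.57 ± 1.26 against 11.4 ± 4.41 TPM for Scara3 (adjusted p = 0.0694) and 133 ± 4.2 against 142 ± 46.4 TPM for Colec12 (adjusted p = 0.69). Of 29 other genes of scavenger receptors and iron handling tested, 6 were higher and 2 lower at 24 h, and 7 were higher and 8 lower at 72 h (also without both replicate 1 libraries). A fit with the replicate block called 7 higher and 4 lower at 24 h, and without replicate 4 of every group the counts were 4 and 1 at 24 h and 4 and 4 at 72 h. The medians, 0.03 and 0.01, were close to -0.01 and 0.01 over all genes. In the main fit 13.2% of all genes were higher and 12.2% lower at 24 h, and 15.2% in each direction at 72 h. Slc39a14, an importer of iron and zinc, rose at 24 h to 100 ± 29.1 from 25.9 ± 3.49 TPM (3.87-fold, limma adjusted p = 3.65e-08). Slc40a1, the iron exporter ferroportin, fell to 12.7 ± 3.91 from 27.9 ± 7.45 TPM at 24 h (2.21-fold lower, limma adjusted p = 0.00118), where treated and vehicle libraries overlapped. At 72 h it fell to 9.83 ± 2.85 from 35.1 ± 6.39 TPM (3.57-fold lower, limma adjusted p = 1.56e-05). Without both replicate 1 libraries the Slc40a1 means at 72 h were 8.41 against 35 TPM. With differentiation Slc40a1 had risen 3.42-fold, to 25.8 ± 9.53 from 7.56 ± 1.3 TPM (limma adjusted p = 4.02e-06), as had Cp, the ferroxidase ceruloplasmin, 4.61-fold (limma adjusted p = 1.77e-08).

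**Figure D4:**
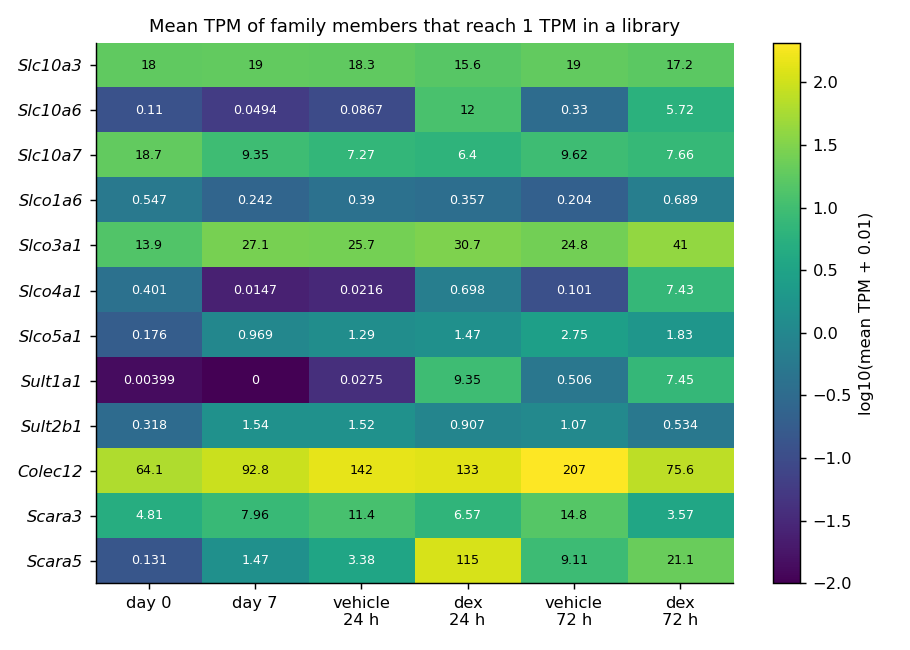
Mean TPM (n = 4) of each Slc10, Slco, Sult and class A scavenger receptor gene that reached 1 TPM in a library, with groups in columns, the mean in each cell and colour on a log10 scale. Slc10a6, Sult1a1 and Slco4a1 change colour between vehicle and dexamethasone. Scara5 has 115 TPM with dexamethasone against 3.38 TPM with vehicle at 24 h, and 21.1 against 9.11 TPM at 72 h. Slc10a3 stays between 15.6 and 19 TPM, and Scara3 and Colec12 are lower with dexamethasone at 72 h.

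The hormones these carriers and enzymes handle are also moved and converted by other proteins. Of 22 other genes of thyroid and steroid hormone transport and conversion tested, 5 were higher and 3 lower at 24 h, and 7 higher and 2 lower at 72 h. Without both replicate 1 libraries the 72 h counts were 7 and 3, and a fit with the replicate block gave 5 and 5 at 24 h. Without replicate 4 of every group they were 3 and 0 at 24 h and 4 and 2 at 72 h. The medians were 0.03 and 0.08, against -0.01 and 0.01 over all genes. For this list and those that follow, the shares over all genes were 13.2% higher and 12.2% lower at 24 h. At 72 h they were 15.2% in each direction. H6pd, which supplies NADPH to the enzyme that activates glucocorticoids, rose 2.95-fold at 24 h (38.5 ± 4.93 against 13.1 ± 2.29 TPM, limma adjusted p = 1.4e-07). Hsd11b1, that activating enzyme, was lower at 72 h, at 49 ± 26.1 against 197 ± 48.5 TPM (4.02-fold lower, limma adjusted p = 2.61e-05), and at 41.7 against 219 TPM without both replicate 1 libraries. Hsd11b2, which inactivates glucocorticoids, was higher at 24 h, at 1.05 ± 0.666 against 0.195 ± 0.129 TPM (limma adjusted p = 0.00151). At 72 h it had 1.31 ± 0.348 against 0.434 ± 0.204 TPM (limma adjusted p = 0.00522, and 0.0518 without replicate 4 of every group). Without both replicate 1 libraries the Hsd11b2 means at 72 h were 1.14 and 0.334 TPM. Abcb1b, an efflux pump that carries steroids, was 2.45-fold higher at 24 h and 2.53-fold higher at 72 h (limma adjusted p = 0.000873 and 0.00013), with 14.7 against 5.7 TPM at 72 h without both replicate 1 libraries. Of 27 other known glucocorticoid receptor targets tested, 25 were higher and none lower at 24 h (none lower at an unadjusted p under 0.05 either), and 17 were higher and 1 lower at 72 h (16 and 2 without both replicate 1 libraries). Their medians were 1.46 and 0.91, against -0.01 and 0.01 over all genes tested, of which 13.2% were higher at 24 h and 15.2% at 72 h. The list was chosen with earlier results of these data known, so its counts are a description and no independent support. Klf15, a transcription factor of muscle amino acid breakdown, was 30.5-fold higher at 24 h, at 16.1 ± 6.4 against 0.529 ± 0.341 TPM (limma adjusted p = 2.4e-08). Fkbp5, a co-chaperone of the receptor, was 9.46-fold higher at 72 h, at 149 ± 32.4 against 15.7 ± 9.48 TPM (limma adjusted p = 9.52e-09), and at 141 against 11.2 TPM without both replicate 1 libraries. Among 18 tested markers of fibroblasts, progenitors and adipocytes, 7 were higher and 2 lower at 24 h, and 4 higher and 6 lower at 72 h (also without both replicate 1 libraries). With the block the 24 h counts were 8 and 6, and with 1 replicate number left out the lower genes at 24 h ran from 1 to 5. Fabp4, a lipid-binding protein of adipocytes, was among the higher, at 38 ± 9.31 against 0.145 ± 0.128 TPM at 24 h (limma adjusted p = 8.06e-08). So were Plin4, at 6.18 ± 1.49 against 0.215 ± 0.0429 TPM (limma adjusted p = 1.01e-07), and Cebpa, at 136 ± 42.7 against 24.8 ± 7.12 TPM (limma adjusted p = 1.26e-07). The adipocyte marker Pparg had 4.24 ± 0.308 against 2.59 ± 0.311 TPM at 24 h. The adipocyte markers Adipoq and Plin1 stayed at 0.136 TPM or less in every library. Of 24 muscle markers 21 rose and 1 fell with differentiation, 5 were higher and none lower at 24 h of dexamethasone, and 5 were higher and 1 lower at 72 h (9 and 1 without both replicate 1 libraries, 8 and 1 with the block). Over all alternatives the number higher at 72 h ran from 2, without replicate 2 or 4 of every group, through 3 on either log2(TPM) scale or with no filter, to 11 without replicate 1. At 24 h 1 muscle marker was lower at an unadjusted p under 0.05. With differentiation, 30.5% of all genes tested were higher and 29.8% lower. Of 8 macrophage markers tested, none was higher and 2 were lower at 24 h, with none higher at an unadjusted p under 0.05, and 1 was higher and 1 lower at 72 h (in the block fit 3 and 2).

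Genes next to the 4 on the chromosome, by RefSeq order, were examined for like responses. Of 26 neighbours 15 could be tested. Slc10a6 lies between 2 tested genes that rose with it at 24 h. Ptpn13, a protein tyrosine phosphatase, rose by 0.74 ± 0.13 on the log2 scale, from 2.74 ± 0.339 to 6.19 ± 0.825 TPM (limma adjusted p = 0.000302). Aff1, a subunit of the super elongation complex, rose by 0.88 ± 0.11, from 9.71 ± 2.41 to 24.9 ± 3.79 TPM (limma adjusted p = 3.13e-06). At 72 h Ptpn13 was at 3.96 ± 1.28 against 3.72 ± 0.611 TPM (adjusted p = 0.809) and Aff1 at 18.7 ± 3.28 against 14.3 ± 2.31 TPM (limma adjusted p = 0.0497, and 0.0582 in the fit with the replicate block). Around Sult1a1 the neighbours that passed were lower. Nupr1, a stress-induced chromatin protein, fell by 1.05 ± 0.12 at 72 h, from 136 ± 22.6 to 47.4 ± 15.7 TPM (limma adjusted p = 1.81e-06), with 146 and 41.7 TPM without both replicate 1 libraries. Nupr1, Bola2 and Mapk3 were lower at 24 h and Coro1a, Mapk3 and Slx1b at 72 h, with differences of -0.16 to -0.51, and each of these calls was lost in at least 1 other setting. Slx1b overlaps Sult1a1 in RefSeq, and reads that the 2 genes share may be split between them. Beside Scara5, Pbk, a mitotic kinase, was higher at 72 h, at 21 ± 11.8 against 2.73 ± 1.6 TPM (limma adjusted p = 0.000993; 21.6 against 2.31 TPM without both replicate 1 libraries). Esco2, a cohesin acetyltransferase of S phase, was at 6.3 ± 3.15 against 0.688 ± 0.467 TPM (limma adjusted p = 0.000139; 6.85 against 0.508 TPM without them). At 24 h, where Scara5 was highest, neither passed, with adjusted p-values of 0.157 and 0.335. The 3 tested neighbours of Slco4a1, B230312C02Rik, Mrgbp and Ogfr, had adjusted p-values from 0.0767 to 0.973 at the 2 times. In all, 2 neighbours were higher and 3 lower at 24 h and 3 higher and 4 lower at 72 h, beside shares over all genes of 13.2% and 12.2% at 24 h and of 15.2% in each direction at 72 h.

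**Figure D5:**
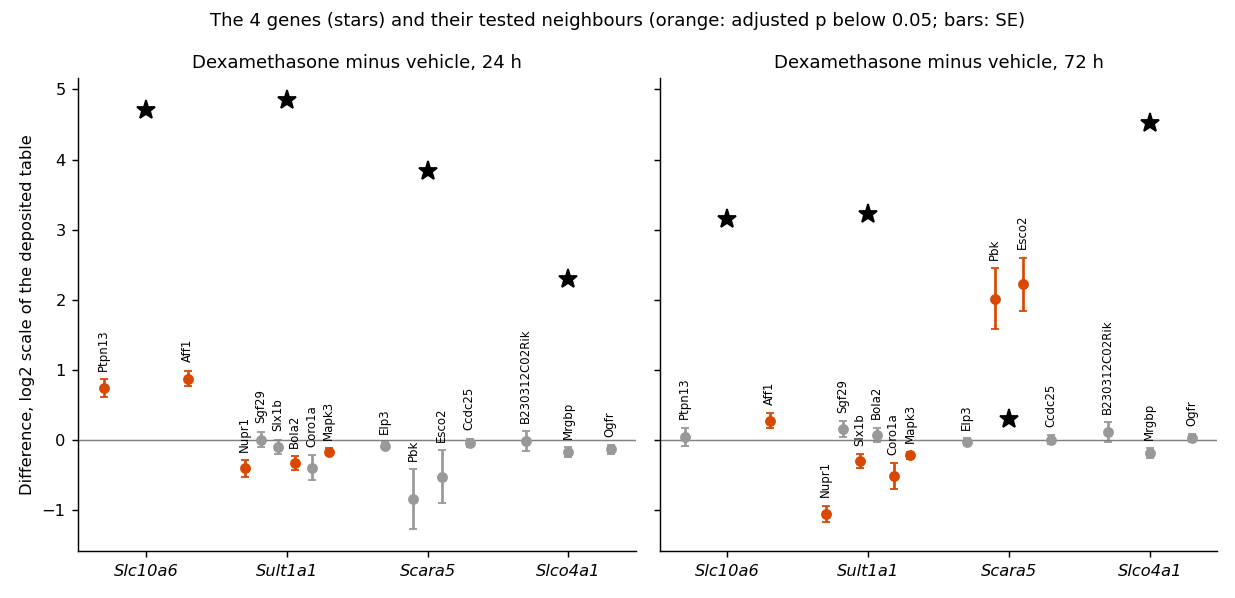
Dexamethasone minus vehicle (y axis, log2 scale of the normalised table) at 24 h on the left and 72 h on the right, for the 4 genes (stars, no test) and their tested neighbours (points with SE, orange where the limma adjusted p is below 0.05), grouped by gene on the x axis. At 24 h Ptpn13 and Aff1, at 0.74 and 0.88, flank the star of Slc10a6 at 4.7, and at 72 h Pbk and Esco2, at 2.02 and 2.22, lie above the Scara5 star at 0.3.

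The profiles of the 4 genes over the 24 libraries were set beside those of 13933 genes with at least 1 TPM in at least 4 libraries, by Pearson's r of log2(TPM + 0.1). All points share the libraries, and the r values are descriptions. The similar genes were taken for their r over these same libraries. Their like replicate patterns at 72 h thus follow from that choice and are no separate support. The members were picked after their response to dexamethasone had been seen, so r between them also reflects that choice. Slc10a6 and Sult1a1 were close to each other (r = 0.979, and 0.988 over 22 libraries without both replicate 1 libraries at 72 h) and shared 3 of their 5 nearest genes. Serpina3m and Serpina3n, secreted protease inhibitors from a cluster of near copies whose reads may be split between them, gave r = 0.984 with Slc10a6, and 0.993 and 0.989 with Sult1a1. Mettl21e, a methyltransferase of muscle, gave 0.98 and 0.994. Serpina3m had 38.6, 4.86, 15.8 and 5.82 TPM in treated replicates 1 to 4 at 72 h, so it was low in replicates 2 and 4 like Sult1a1. Its vehicle libraries at 72 h had 4.63, 0, 0 and 0 TPM, with replicate 1 again the high one. Lcn2, a siderophore-binding protein, and Aldh1a1, a retinaldehyde dehydrogenase, gave 0.989 and 0.99 with Sult1a1, and Ifi207 and Glul, the glutamine synthetase, gave 0.979 each with Slc10a6. Nearest to Scara5 were Mettl7a1 (r = 0.965), Npy1r (0.964), Rnase2a (0.958), Ror1 (0.953) and Abca1 (0.952). Npy1r, a neuropeptide Y receptor, had 3.17, 0.658, 2.27 and 0.437 TPM in treated cells at 72 h, the same high and low replicates as Scara5. Slco4a1 had no profile as near, the highest being Ctnnal1 (r = 0.913), Txn2 (0.907), Tprn (0.901), Cyb561 (0.9) and Cpt1b (0.897). Txn2, the mitochondrial thioredoxin, ran from 232 to 261 TPM in treated and from 162 to 181 TPM in vehicle libraries at 72 h, without overlap. Between the members, r was 0.816 for Scara5 and Sult1a1, 0.777 for Scara5 and Slc10a6, 0.724 for Slc10a6 and Slco4a1, 0.687 for Slco4a1 and Sult1a1 and 0.263 for Scara5 and Slco4a1.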

How the data were processed

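RNA from 24 C2C12 libraries was sequenced with a stranded kit for polyadenylated RNA, per the labels' protocols. The submitters' processing notes name the build GRCm39 and, without saying what each did, the tools kallisto 0.51.1, Salmon and DESeq. A first deposited table holds log2 values, from -2.33 to 20.06, normalised by the authors in a way not given in the sources used here. The other holds TPM computed by the authors, which sum to 1000000 per library and keep no depth, so no counting interval can be given.

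The log2 values were fitted with limma 3.58.1 (limma-trend, R 4.3.3), with 1 mean for each of the 6 groups, for 16257 genes whose value, taken as a power of 2, reached 10 in 4 or more libraries. A fold is the ratio of 2 mean TPM values and is printed if the lower is 0.5 or more. The fit was checked on simulated data. No test is given for Sult1a1, which met the filter through treated libraries only, or for the members between vehicle groups or against day 7, though these had been planned. Alternatives were log2(TPM + 0.1) and log2(TPM + 1) over 15250 genes, no filter (30349 genes), quantile normalisation, a replicate block, only the 2 groups compared, each replicate number left out, and both replicate 1 libraries at 72 h left out. On the TPM scale the median of all genes shifted by -0.11 for differentiation and by 0.14 from vehicle 24 h to vehicle 72 h, so directions are relative to that.

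The labels give the same replicate numbers in every group. Deviations from group means correlated between same-numbered libraries at 0.145 to 0.212 for differentiation, 0.201 to 0.391 for dexamethasone at 24 h and 0.117 to 0.338 at 72 h. In these comparisons 4, 4 and 3 of 4 libraries were closest to their own number. The numbers may thus pair these libraries, less clearly at 72 h, by these correlations and not by the labels. The main fit has no block, and the fit with the replicate block is given as an alternative.

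The 4 genes, the 8 gene lists and the tests were chosen with earlier results of these data known. Named genes were the 4 members, up to 3 called genes with the largest difference per list and comparison, the family relatives, the 3 nearest RefSeq genes on each side present in the tables and those overlapping a member, and the 5 most similar profiles. Upstream windows are from RefSeq on GRCm38.p6, with 4 windows for 3 of the genes.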

Additional observations from a re-analysis of the deposited data

Results flagged for a closer look

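In 24 groups of 4 libraries (6 groups for each gene), the gap between the highest or lowest library and its nearest neighbour, divided by the whole range of the group, was compared with Dixon's critical value for 4 samples. For normally distributed values chance alone passes about 1 group in 20, a rate that need not hold for TPM values near 0. Vehicle 72 h replicate 1 passed for 3 of the 4 genes, with 0.95 TPM of Slc10a6 (0.935 of the range), 0.319 TPM of Slco4a1 (0.91 of the range) and 1.92 TPM of Sult1a1 (0.985 of the range). The same library held 8.14 TPM of Fabp4, against 0.143 to 0.17 TPM in the other vehicle libraries at 72 h. The flags of vehicle 72 h replicate 1 come from 1 library and are not independent. Day 0 replicate 4 passed for Sult1a1, with 0.016 TPM where the other 3 myoblast libraries were listed at 0. Any level above 0 would have passed there, and the day 7 group of Sult1a1, all at 0, could not pass.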

How the results depend on the processing

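For the 3 members tested (not Sult1a1), the direction and, for differentiation, the side of the threshold held in all alternatives run, with 4 exceptions. The Scara5 difference in differentiation was 1.12 (adjusted p = 0.124) and the Slco4a1 difference -0.45 (adjusted p = 0.174) on log2(TPM + 1). The Slc10a6 difference, uncalled, was called at -0.58 without replicate 1, and ran from -0.58 to -0.25 with 1 replicate number left out. The Slco4a1 difference from day 7 to vehicle 24 h, 0.05, was -0.03 without replicate 2 and ran from -0.03 to 0.13 with 1 replicate number left out. With the replicate block the differentiation differences were 1.46 for Scara5 (adjusted p = 0.0172), -1.86 for Slco4a1 (adjusted p = 0.00169) and -0.39 for Slc10a6, with the same calls. The block changed the counts of genes called to 10047 from 9797 for differentiation, 4621 from 4134 at 24 h of dexamethasone and 5433 from 4931 at 72 h. For vehicle 24 h against day 7 and for vehicle 72 h against vehicle 24 h the numbers did not clearly pair the libraries. Correlations ran from -0.014 to 0.492 and from -0.249 to 0.565, with 1 and 2 of 4 libraries closest to their own number. The block gave 109 and 1067 genes in these 2 comparisons. From day 7 to vehicle 24 h, 34 genes were called by limma, against 4 on log2(TPM + 0.1), 5 on log2(TPM + 1), 4 without a filter, 0 with only the 2 groups compared (2496 at an unadjusted p under 0.05), 11 without both replicate 1 libraries at 72 h, and 0 to 519 with 1 replicate number left out. The 0 came without replicate 1 or 4 (2247 and 1137 at an unadjusted p under 0.05) and 519 without replicate 3. From vehicle 24 h to vehicle 72 h, 709 were called, against 270, 264, 94, 4 and 380 in the same order, and 0 to 474 with 1 replicate number left out, with 5 without replicate 1 and 0 without replicate 3 or 4 (1900 and 3501 at an unadjusted p under 0.05). For dexamethasone, leaving out 1 replicate number gave 1707 to 3726 genes at 24 h, with 2479 without replicate 3 and 1707 without replicate 4, and 2591 to 5185 at 72 h, with 3090 without replicate 2 and 2591 without replicate 4. The causes were not tested. Of 94 calls of list, family and neighbour genes followed, 63 stayed on the same side of the threshold in every alternative. Depth is unknown, so levels near 0 TPM cannot be given a limit.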
